A study of Homo sapiens with 4 samples.

Results

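MALAT1, NEAT1, TUG1, KCNQ1OT1 and PVT1 are 5 long noncoding RNAs that are best known from the cell nucleus. They were followed in GIST-T1, a human line established from a gastrointestinal stromal tumor (GIST), after a miR-335 mimic had been transfected. All probes that the array files name for these genes were kept, which gave 38 probes for 5 of the 36337 gene names on the array. MALAT1 has 8 of them, NEAT1 6, TUG1 12, KCNQ1OT1 1 and PVT1 11.

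Per the labels, cells of the mimic group received 100 pmol of a miR-335 mirVana mimic, a synthetic duplex that takes the place of the mature microRNA, and cells of the control group received the mirVana Negative Control #1. Both groups were nucleofected, and total RNA was taken 48 h later, of which 100 ng was amplified, labeled with Cy3 and hybridized to a SurePrint G3 human array. There were 2 arrays per group. The labels do not say that replicates came from separate cultures, so p-values measure only the spread between these arrays. A line in the description of both mimic samples names miR-34a, whereas the title and the transfection field name miR-335, and the groups here follow the latter. The level of mature miR-335 was not analysed here, and the labels do not say which arm of the hairpin the mimic copies. GIST-T1 is a single cell line, and the RNA was not separated into nuclear and cytoplasmic parts, so the nuclear location of these RNAs was not measured.

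As background, MALAT1 is an abundant transcript of nuclear speckles, the bodies in which splicing factors are stored. NEAT1 is the scaffold of paraspeckles, and it has a short isoform and a long isoform that share their 5′ part, of which the long one is needed to build the body. The 3′ ends of MALAT1 and of long NEAT1 are not polyadenylated in the usual way: RNase P and RNase Z cut a tRNA-like structure from them, and a triple helix protects the end that is left. KCNQ1OT1 is an imprinted antisense transcript that silences neighbors such as CDKN1C in cis. TUG1 has been described with polycomb proteins and as a p53 target, and PVT1 is a neighbor of MYC. In a RefSeq gene table of GRCh38.p14 all 5 symbols were found, 4 as lncRNA and TUG1 as a protein_coding gene.

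The sequences on which the results turn are the 2 possible arms of the mimic and the probes that define each transcript. In the RefSeq mature sequences below (GRCh38.p14, plus strand, chr7:130496126-130496148 for the 5p arm and chr7:130496162-130496183 for the 3p arm) capitals mark the seed, bases 2 to 8, through which a microRNA pairs with its targets. The other lines are array probes of 60 bases, named by gene and by the position in the accession, with hg19 locations from the array files. They are the brightest probes of MALAT1 (chr11:65267042-65267101, plus strand), NEAT1 (chr11:65193885-65193944, plus) and TUG1 (chr22:31371927-31371986, plus), the 3′-most probe of MALAT1 (chr11:65273871-65273930, plus), the KCNQ1OT1 probe (chr11:2661803-2661862, minus) and a TUG1 probe with a seed match (chr22:31373664-31373723, plus), where capitals mark the match.
hsa-miR-335-5p: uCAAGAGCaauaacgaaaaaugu
hsa-miR-335-3p: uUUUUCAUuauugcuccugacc
MALAT1 1809: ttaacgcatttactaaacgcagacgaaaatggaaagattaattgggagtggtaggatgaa
MALAT1 8638: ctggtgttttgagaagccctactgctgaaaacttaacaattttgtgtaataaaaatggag
NEAT1 3616: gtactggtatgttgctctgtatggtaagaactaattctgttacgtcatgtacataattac
KCNQ1OT1 59366: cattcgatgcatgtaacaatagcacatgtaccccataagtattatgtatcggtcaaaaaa
TUG1 3650: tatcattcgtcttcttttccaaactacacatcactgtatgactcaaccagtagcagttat
TUG1 5387: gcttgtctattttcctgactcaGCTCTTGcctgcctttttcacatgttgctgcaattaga

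MALAT1, NEAT1 and KCNQ1OT1 gave higher signals with the mimic, and TUG1 and PVT1 did not pass the test on any probe. Values are normalized log2 signals, that is, the log2 processed intensity minus the 75th percentile of the array, so a difference of 1 is a 2-fold change. Of the 38 probes, 26 were tested, because both arrays of 1 group or of both groups showed them well above background, and 12 were not, of which 10 were well above background on no array. In limma with Benjamini-Hochberg adjustment over all 20328 tested probes, 10 member probes passed 0.05, all of them higher (7 of MALAT1, 2 of NEAT1 and that of KCNQ1OT1). Over all tested probes 1.47% were called higher and 1.15% lower. The 9 called probes of MALAT1 and NEAT1 were well above background on all 4 arrays, whereas the KCNQ1OT1 probe entered the test through the mimic arrays alone, so that its call does not add to the count as support. The median log2 change over the 26 member probes was 0.23, against -0.01 over all tested probes, and it became 0.42 without mimic replicate 1 and 0.038 with scaling to the spike-in RNAs. By gene the medians were 0.95 for MALAT1, 0.53 for NEAT1, 1.27 for KCNQ1OT1, -0.20 for TUG1 and 0.05 for PVT1. The pooled median thus depends on how many tested probes each gene has (8 for MALAT1 and 11 for TUG1) and stands for no single RNA. The groups did not overlap in 14 member probes that were higher and in 7 that were lower, and over all tested probes these shares were 27.1% and 32.5%. By a limit of 1.5-fold with no test, 10 member probes were higher and 0 lower, against 2.43% higher and 1.47% lower over all tested probes.

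The smallest two-sided p that exact permutation allows for 2 arrays per group is 0.333, and the calls therefore rest on the spread that limma pools over probes. All 4 arrays lay on 1 slide and were scanned as 1 scan, the controls at positions 1 and 2 and the mimics at 3 and 4, so position and group cannot be told apart. An array had 20386 to 21214 of its 50599 probes well above background, no spot was saturated, and replicate arrays differed by a median of 0.06 per tested probe in both groups. All 6 markers of GIST and interstitial cells of Cajal (KIT, ANO1, ETV1, PRKCQ, CD34 and PDGFRA) were well above background on all 4 arrays. On the brightest probe of each, all 6 were lower with the mimic by fitted value (median -0.09, from -0.33 for KIT to -0.07 for ANO1). Over the brightest probes of all named genes 45.1% were above 0. Dimmer probes of KIT (-0.14 to -0.06) and CD34 (-0.03) were also below 0. Those of ETV1 ranged from -0.24 to 0.01, and that of ANO1 was at 0.47. None of the 6 passed in limma on the brightest probe (lowest adjusted p 0.0512, for KIT), and their part in the results was not tested. Of the 3 markers of each of leukocytes, epithelium, endothelium and smooth muscle, 2 were on no array in each list, and CD14, EPCAM and DES were detected on all 4 but did not pass in limma (adjusted p 0.177 to 0.701), with the largest change at EPCAM (-0.89, adjusted p 0.287).

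**Figure D1:**
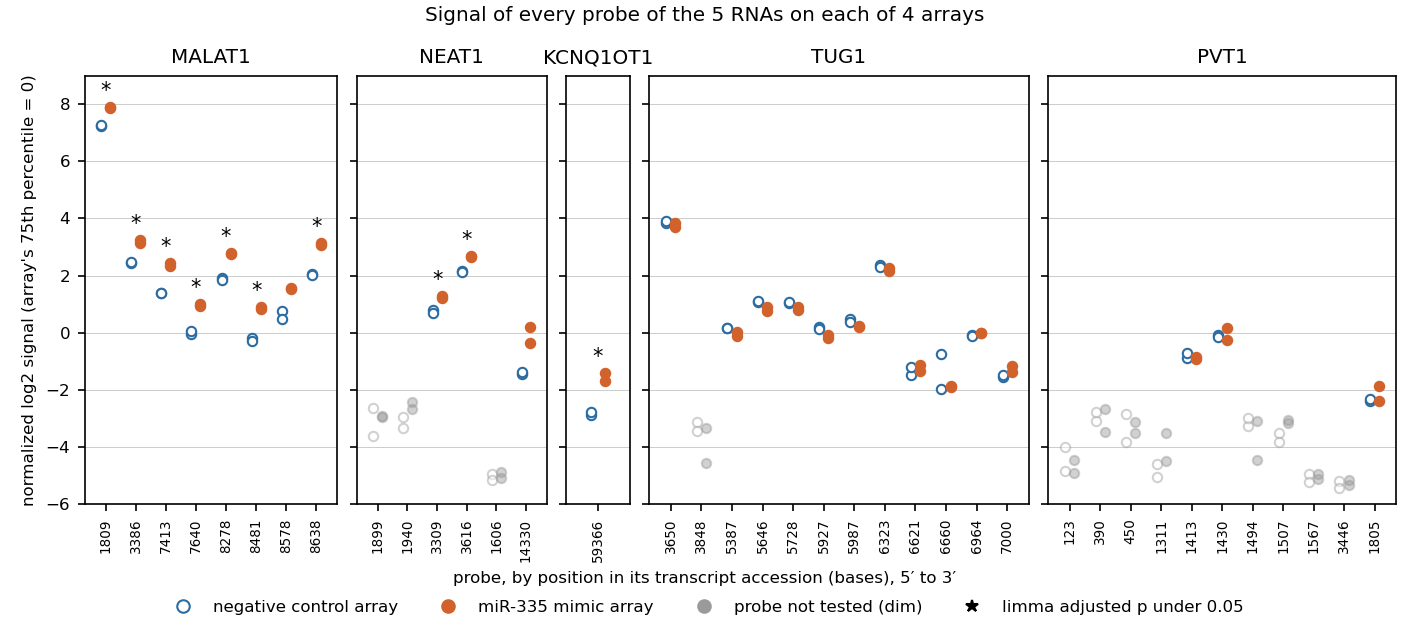
Normalized log2 signal (y axis) of every probe of the 5 RNAs, ordered 5′ to 3′ and labeled by position in the accession (x axis; the last 2 NEAT1 positions and PVT1 3446 count in other accessions than the rest). Open points are the 2 control arrays, filled points the 2 mimic arrays, gray points probes that were too dim to test, and stars mark an adjusted p under 0.05 in limma. The mimic points lie above the control points on all 8 MALAT1 probes.

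MALAT1 was higher on every probe. All 8 probes lie on the plus strand of chromosome 11 between 65267042 and 65273930 (hg19), in accession NR_002819, and all were well above background on all 4 arrays. At position 1809, the brightest probe, the mimic arrays read 7.86 and 7.91 and the control arrays 7.24 and 7.26. Both mimic arrays thus lay above both controls, and this probe rose by 0.63 ± 0.04 (SE; 1.55-fold, limma adjusted p 0.0348). The probe next along the transcript, at 3386, read 3.15 and 3.24 with the mimic and 2.45 and 2.46 in the control, a rise of 0.74 ± 0.05 (limma adjusted p 0.0348).

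The 6 probes in the 3′ part, from 7413 to 8638, had log2 changes of 0.90 to 1.09. At 8638 the mimic arrays read 3.07 and 3.12 and the control arrays 2.04 and 2.00, which gave a rise of 1.08 ± 0.04 (2.11-fold, limma adjusted p 0.0314). At 8481 they read 0.88 and 0.82 against -0.19 and -0.28, the largest rise of the gene, 1.09 ± 0.05 (2.13-fold, limma adjusted p 0.0314). The groups were separate on all 6. The probe at 8578 alone did not pass (0.92 ± 0.11, limma adjusted p 0.0537), with mimic values of 1.57 and 1.52 and control values of 0.76 and 0.49 that lay farther apart than on the other probes (control SD 0.19). It passed when only probes detected on all 4 arrays were tested (adjusted p 0.0452), a filter under which KCNQ1OT1 was not tested, so that the count of 10 member calls there holds this probe in its place.

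Since the rule compares probes along the transcript, the change of each probe was set against that of the brightest probe of the same gene, in its own limma fit over 4874 such differences. All 7 differences of MALAT1 were above 0, from 0.11 to 0.46, and 5 had an unadjusted p below 0.05. The largest were those of 8481 (0.46, 95% interval 0.23 to 0.69, limma adjusted p 0.177) and 8638 (0.45, 95% interval 0.27 to 0.62, limma adjusted p 0.139). No difference passed after adjustment, for MALAT1 or for any gene (0 of 4874 called, 0%, with 684 at an unadjusted p below 0.05). As a description, the change was correlated over the 8 probes, which share the arrays and 1 transcript. The r was 0.90 with the distance along the locus, -0.79 with the mean normalized signal and 0.24 with the GC content of the probe. The brightest probe is also the 5′-most, and the parts of distance and signal were not tested apart.

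**Figure D2:**
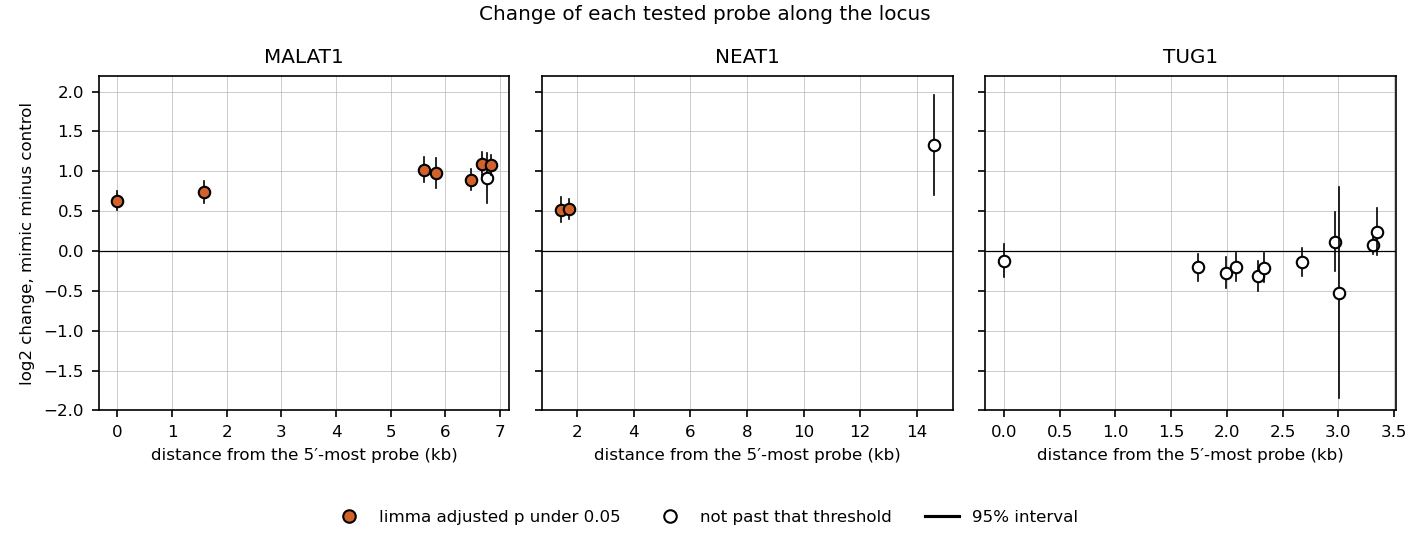
Log2 change, mimic minus control, with its 95% interval (y axis) for each tested probe of MALAT1, NEAT1 and TUG1, against the distance in kb from the 5′-most probe of the gene, tested or not (x axis). Filled points passed an adjusted p of 0.05 in limma. The MALAT1 changes lie between 0.63 and 1.09, and those of TUG1 between -0.52 and 0.24.

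The array also carries probes for the strand opposite to MALAT1, which were looked up by position after the values of the series were known. Of the 5 such probes within 10000 bases of the MALAT1 probes, all were well above background on all 4 arrays. The 2 that lie inside the span of the MALAT1 probes were higher with the mimic. LOC100507645 at 65267488 to 65267547 (minus strand) read -0.62 and -0.57 with the mimic and -1.41 and -1.46 in the control, a rise of 0.84 ± 0.04 (SE, limma adjusted p 0.0314). XLOC_009474 at 65269772 to 65269831 (minus strand, accession AF113016) read 0.31 and 0.38 against -0.16 and -0.22, a rise of 0.53 ± 0.05 (limma adjusted p 0.0409).

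The other 3 probes of LOC100507645, which lie 5′ of all MALAT1 probes on the MALAT1 strand, changed by 0.25, 0.02 and 0.08 (SE 0.05 to 0.12), and none passed in limma (adjusted p 0.113 to 0.906). On the probe at 65266817 the mimic arrays read 0.83 and 0.94 and the controls 0.62 and 0.65, so the groups were separate (0.25 ± 0.05, limma adjusted p 0.113). On the probe at 65266958 the mimic arrays read -0.70 and -0.83 and the controls -0.88 and -0.69, so the groups overlapped. Whether the labeling kept the strands wholly apart was not tested. The opposite-strand probe at NEAT1 (LOC100653017) was well above background on no array.

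**Figure D3:**
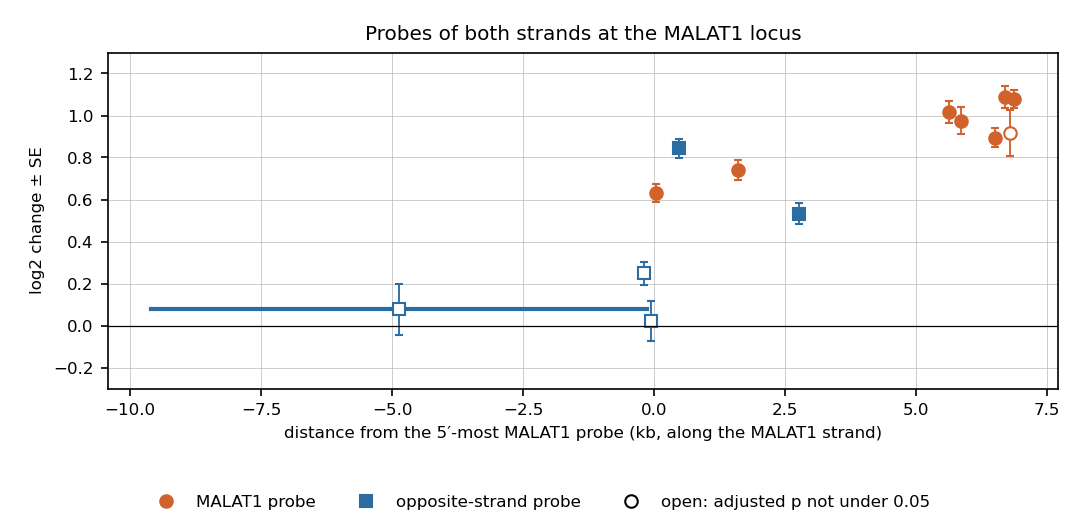
Log2 change ± SE (y axis) of the 8 MALAT1 probes (circles) and of 5 probes of the opposite strand (squares) against the distance in kb from the 5′-most MALAT1 probe (x axis). The long bar spans the 2 ends of a probe whose position in the file covers 65257446 to 65266912, with its symbol at the middle of that span. Filled symbols passed an adjusted p of 0.05 in limma, and the opposite-strand probes that passed, at 0.84 and 0.53, lie inside the span of the MALAT1 probes.

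NEAT1 was higher on both probes in the 3′ part of the short isoform (accession NR_028272, chromosome 11, plus strand). At 3616, the brightest, the mimic arrays read 2.63 and 2.70 and the control arrays 2.15 and 2.14, a rise of 0.53 ± 0.04 (SE; 1.44-fold, limma adjusted p 0.0388). At 3309 they read 1.28 and 1.23 against 0.79 and 0.69, a rise of 0.52 ± 0.06 (1.43-fold, limma adjusted p 0.0479). The groups did not overlap on either probe, and the 2 changes differed by -0.01 (95% interval -0.24 to 0.22). This stretch is common to both isoforms, so the 2 probes do not tell them apart.

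The 3′-most NEAT1 probe lies in sequence that belongs to the long isoform only. Its mimic arrays read -0.37 and 0.20 and its control arrays -1.45 and -1.38. The mimic arrays lay above the controls but differed from each other by more than on any other tested NEAT1 probe (SD 0.40), and the change of 1.33 ± 0.22 (2.51-fold, 95% interval 0.70 to 1.96) did not pass in limma (adjusted p 0.0798). It passed in limma under normexp background correction (0.87, adjusted p 0.00906) and with an intensity trend in eBayes (adjusted p 0.00322). In these settings 3.90% and 6.63% of all tested probes were called higher. Its change exceeded that of the brightest probe by 0.80 (95% interval 0.25 to 1.36), with a limma adjusted p of 0.242. The other 3 NEAT1 probes were too dim to test, including the second long-isoform probe, which was on no array. Those at 1899 and 1940 share 19 bases and were well above background on 0 and 1 array.

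KCNQ1OT1 is represented by 1 probe, on the minus strand of chromosome 11 at position 59366 of NR_002728, a very long transcript. The mimic arrays read -1.42 and -1.69 and the control arrays -2.87 and -2.77. The probe was well above background on both mimic arrays and on neither control array, so its size is a bound, set by the mean of the mimic arrays against, for each control array, whichever was higher, the signal of this probe or the lowest signal that counted as detected. By this measure KCNQ1OT1 was at least 2.41-fold higher with the mimic (fitted log2 change 1.27 ± 0.11 SE, limma adjusted p 0.0392). The control signals of the probe lay above that detection limit, so the bound equals the measured fold, and it holds for this normalization only: the log2 change was 1.08 with spike-in scaling and 1.14 without mimic replicate 1. Because the probe was tested only through the group in which it was detected, its p is given with no weight as support. Normexp background correction, which adds an offset of 50 intensity units, gave a smaller log2 change of 0.48 (adjusted p 0.0079). Whether the probe also binds other transcripts was not analysed here.

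TUG1 did not pass on any of its 11 tested probes, all in NR_002323 on the plus strand of chromosome 22. At 3650, the brightest, the mimic arrays read 3.68 and 3.84 and the control arrays 3.84 and 3.92, a change of -0.12 ± 0.07 (SE; 95% interval -0.33 to 0.09, limma adjusted p 0.379). The mimic replicates lay farther apart than the group means. Of the 11 changes 8 were below 0 and 3 above, with a median of -0.20.

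The 5 probes from 5387 to 5987 had changes of -0.31 to -0.20, each with both mimic arrays below both controls and an unadjusted p below 0.05, and limma adjusted p of 0.11 to 0.165. Over all tested probes, 32.5% had groups apart in that direction, and 13.7% were lower at an unadjusted limma p below 0.05. The 5 probes share the arrays and 1 transcript, so they are not separate results. At 5927 the mimic arrays read -0.08 and -0.20 and the controls 0.21 and 0.13 (change -0.31 ± 0.07, limma adjusted p 0.11). Toward the 3′ end the signs were mixed. At 7000 the arrays read -1.40 and -1.16 with the mimic and -1.56 and -1.48 in the control (0.24 ± 0.10, adjusted p 0.247), and this change exceeded that of the brightest probe by 0.36 (95% interval 0.17 to 0.55, limma adjusted p 0.184).

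The TUG1 probe at 6660 read -1.90 and -1.88 with the mimic but -0.76 and -1.98 in the control, so its change of -0.52 ± 0.46 rests on control replicate 1 and becomes 0.09 without it. The overlapping probe at 6621, which shares 21 of its bases, changed by 0.12 ± 0.13. The probes at 6964 and 7000 share 24 bases, and the probe at 3848 was on no array. With an intensity trend in eBayes, 2 TUG1 probes passed in limma as lower, those at 5646 and 5927 (adjusted p 0.0291 and 0.0397). Under normexp the one at 5927 did (-0.25, limma adjusted p 0.0419). Over all tested probes 8.54% were called lower with the trend and 3.73% under normexp.

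PVT1, on the plus strand of chromosome 8, was close to background over most of its length. Of its 11 probes 7 were on no array and 3 were tested. At 1430, the brightest, the mimic arrays read -0.27 and 0.15 and the controls -0.07 and -0.14, a change of 0.05 ± 0.16 (SE; 95% interval -0.42 to 0.52, limma adjusted p 0.87). At 1413, which shares 43 bases with it, the change was -0.09 ± 0.08 (95% interval -0.33 to 0.15). At 1805 the arrays read -2.41 and -1.88 with the mimic and -2.40 and -2.31 in the control, a change of 0.21 ± 0.20 (95% interval -0.37 to 0.79). The groups overlapped on all 3.

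The calls for MALAT1, NEAT1 and KCNQ1OT1 were lost when any 1 array was left out. Such a fit leaves 1 array in a group. With the tested probes kept, it also lost nearly all calls over the whole array, so it cannot decide whether these calls in particular hold. With the detection rule applied again, some of these fits still called other probes. The changes kept their sign without any 1 array. They came to 0.60 to 0.66 for the brightest MALAT1 probe, 0.49 to 0.56 for that of NEAT1 and 1.14 to 1.41 for KCNQ1OT1. With scaling to the external spike-in RNAs, the median change over the whole tested array went from -0.01 to -0.20. On that scale the 3 RNAs still rose (0.44, 0.34 and 1.08), 7 TUG1 probes were called lower (brightest -0.31, adjusted p 0.0363) and PVT1 changed sign to -0.14 (adjusted p 0.49). Over all tested probes the calls went from 299 higher and 233 lower to 511 higher and 9131 lower, so 44.9% of all probes were called lower on that scale and the share of higher probes among the calls went from 56.2% to 5.3%.

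**Figure D4:**
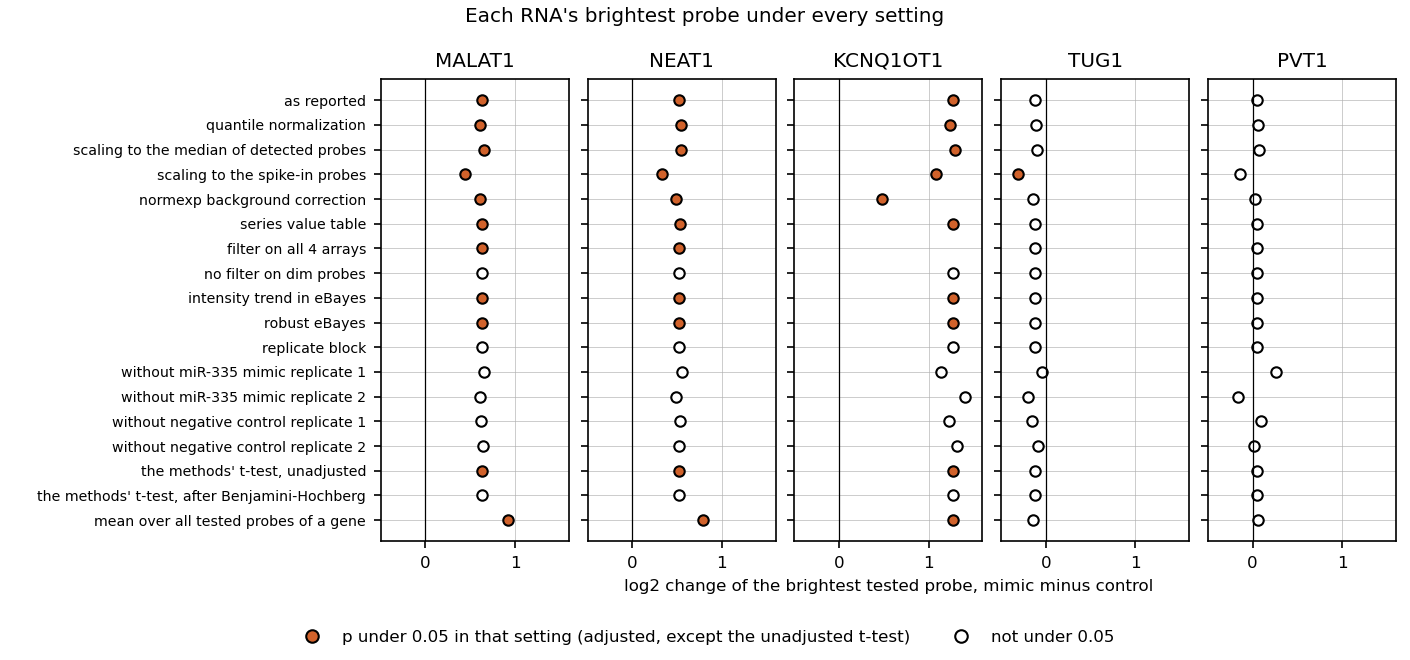
Log2 change of each RNA's brightest tested probe (x axis; for the last line, the mean over its tested probes) under every processing alternative (y axis). Filled points have p under 0.05 in that setting. MALAT1, NEAT1 and KCNQ1OT1 stay above 0 in every line in which they were tested, from 0.34 upward (KCNQ1OT1 was not tested under the filter on all 4 arrays), and lose the threshold whenever an array is left out.

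The sequences were searched for the 7 bases that pair with bases 2 to 8 of miR-335-5p (gctcttg) and of miR-335-3p (atgaaaa), on the probe strand as deposited. Of the 38 member probes 1 held the 5p match, against 0.437% of all 50599 probes, and 1 held the 3p match, against 1.22%. Both are TUG1 probes. The 5p match lies in the probe at 5387, whose mimic arrays read -0.11 and 0.02 and whose controls both read 0.16 (change -0.21 ± 0.06 SE, limma adjusted p 0.156). The probes beside it at 5646 and 5728, which hold no match, changed by -0.28 and -0.20. The 3p match lies in the probe at 6323 (-0.14 ± 0.06, adjusted p 0.26). Probes of 60 bases cover only a small part of these transcripts, and the rest of their sequence was not searched.

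The proteins that work with these RNAs were followed in 6 lists of 90 genes, of which 84 had a tested probe (each gene by its brightest). By that probe none was called higher and 2 were called lower, beside the 1.47% and 1.15% of all tested probes. All 16 paraspeckle proteins were detected on all 4 arrays and none passed on its brightest probe (median -0.0038, range -0.24 to 0.08). Over all 31 tested probes of this list the range was -0.24 to 1.90. The value of 1.90 was that of a dim RBM14 probe, well above background on the mimic arrays only. It did not pass in limma (adjusted p 0.0679), and the brightest RBM14 probe changed by 0.02. HNRNPK, an RNA-binding protein needed for paraspeckles, changed by -0.24 ± 0.05 on its brightest probe (SE, limma adjusted p 0.0982) and by -0.01 on its other tested probe (adjusted p 0.897). PSPC1, a core paraspeckle protein, changed by -0.13 ± 0.04 (limma adjusted p 0.162) and by -0.07 on its other probe (adjusted p 0.501). Over all 131 tested probes of the 6 lists 2 were called higher and 2 lower, and both higher ones are dimmer probes of paraspeckle proteins, chosen here after their values were seen. A second probe of SFPQ, a core paraspeckle protein, read 1.96 and 1.95 with the mimic and 1.48 and 1.46 in the control (0.49 ± 0.04, limma adjusted p 0.0351), while the brightest changed by 0.08 (adjusted p 0.533). A dimmer probe of the RNA-binding protein HNRNPA1 read 1.39 and 1.37 against 0.92 and 0.92 (0.46 ± 0.04, limma adjusted p 0.0368), while the brightest changed by -0.03 (adjusted p 0.694). The probes of these genes thus disagree. All 15 nuclear speckle proteins were detected and none passed (median 0.09, range -0.22 to 0.14 on the brightest probes and -0.23 to 0.57 over all 26 tested probes). Those with the smallest p were the splicing factor SRSF2 (0.13 ± 0.04, limma adjusted p 0.158) and the splicing coactivator SRRM1 (0.14 ± 0.04, adjusted p 0.173).

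Of the 12 tested genes for RNase P, RNase Z and the proteins of the triple helix end, 1 was called lower. RPP14, an RNase P subunit, read 1.24 and 1.26 with the mimic and 1.61 and 1.61 in the control, and it fell by 0.36 ± 0.04 (SE, limma adjusted p 0.0447). The other 11 did not pass (median of the list -0.01). Among the 14 chromatin partners named for TUG1 or KCNQ1OT1 none passed (median 0.01), and EZH2, the polycomb methyltransferase, changed by 0.19 ± 0.05 (SE, limma adjusted p 0.158). Of 15 tested p53 target genes none passed (median -0.07, 10 below 0), with the death receptor FAS at -0.29 ± 0.04 (limma adjusted p 0.0638) and ZMAT3 at -0.28 ± 0.04 (adjusted p 0.0661), and the probe of CDKN1A was on no array.

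Of the 16 genes that lie next to the 5 RNAs, 12 were tested and 1 was called. CDKN1C, a cell cycle inhibitor in the imprinted domain of KCNQ1OT1 (chr11:2904903-2904962, minus strand), read 3.77 and 3.84 with the mimic and 4.31 and 4.41 in the control, and it fell by 0.56 ± 0.06 (SE, limma adjusted p 0.046). The groups were separate, as they were in that direction on 32.5% of all tested probes. KCNQ1OT1 in the same domain was higher with the mimic, on a probe detected on the mimic arrays only. A link between KCNQ1OT1 and CDKN1C was not tested. The median over all 12 was 0.05, and KCNQ1 and PHLDA2, also in that domain, were too dim to test. Of the other neighbors of KCNQ1OT1 in the list, SLC22A18 changed by -0.23 ± 0.06 (limma adjusted p 0.13), with both mimic arrays below both controls, while NAP1L4 (0.11 ± 0.05, adjusted p 0.278), TSSC4 (0.10, adjusted p 0.253) and CD81 (0.03, adjusted p 0.647) did not pass either. Under spike-in scaling 43 genes of the 6 lists were called lower, beside 44.9% of all probes, and with any array left out 0 were.

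**Figure D5:**
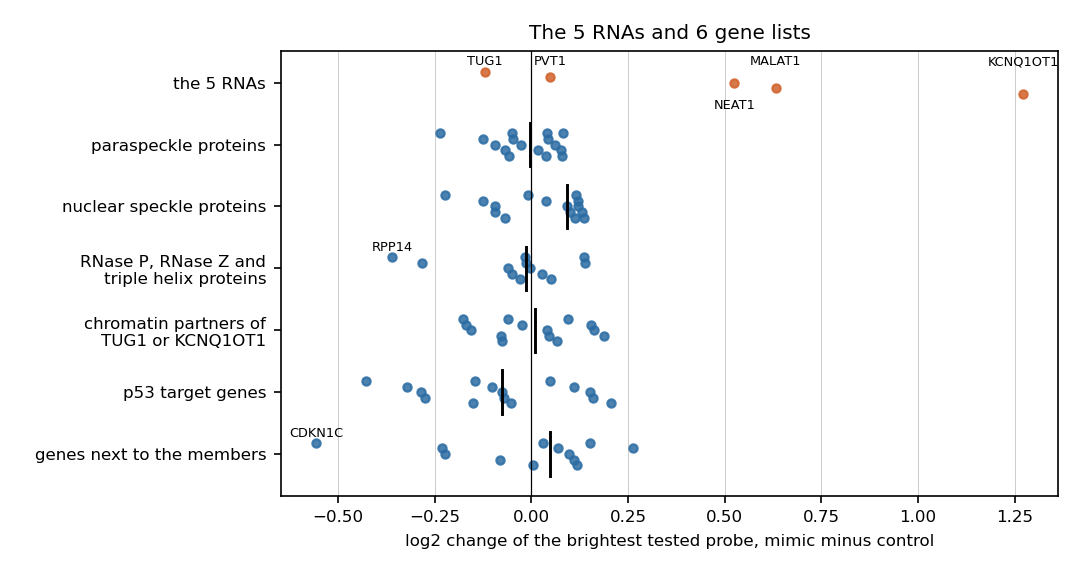
Log2 change of the brightest tested probe, mimic minus control (x axis), for the 5 RNAs and for each gene of 6 lists (y axis, 1 point per gene, spread vertically only for legibility). Black bars are list medians, and the 2 list genes named in the plot are those called lower. MALAT1, NEAT1 and KCNQ1OT1 lie to the right of every list gene, the highest of which is at 0.26.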

How the data were processed

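Each of the 4 GIST-T1 arrays had a scanner file from Feature Extraction 10.7.3.1 (per the file headers). The deposited intensity values are those after the scanner software's background subtraction and spatial detrending, with no normalization between arrays. A value table deposited for the series repeats this intensity in rounded form and was used as an alternative. The labeling kit primes from adenine-rich sequence, so the signal of a probe depends on its distance from such a site, and levels of different probes are not comparable as amounts of RNA.

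Outlier spots (356 to 395 per array) were left out, replicate spots were averaged, and log2 intensity minus the 75th percentile of the array was used. A probe was well above background when at least 0.5 of its spots carried the flag. Tests used limma 3.58.1 in R 4.3.3 (eBayes without trend, no covariates) with Benjamini-Hochberg adjustment over all 20328 tested probes and a threshold of 0.05. The limma fit was tested on simulated data with changes of 1.5-, 2- and 4-fold. It recovered 44.8%, 74.6% and 89.4% of these, so a probe that did not pass can still have changed. The columns of the series table matched to no sample numbered 0.

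The members, lists and tests were chosen with earlier results of these data known. Named genes were all members, the called genes of each list (at most 6) or otherwise the 2 with the smallest p, and for each member the 2 genes with the most similar pattern. Gene names and positions (hg19) were taken from the array files. The sequence of 1 probe and 1 gene that the naming rule picked are not reported here. Figures were drawn with matplotlib 3.10.9.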

Additional observations from a re-analysis of the deposited data

How the results depend on the processing

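All alternatives were planned except the leave-one-out fits that applied the detection rule again, which were chosen after seeing the data. The 10 member probes called higher came to 9 to 12 under quantile normalization, both other scalings, normexp, the series values, the filter on all 4 arrays, the intensity trend and robust eBayes. The count was 0 with no filter on dim probes, 0 with the replicate block and 0 after Benjamini-Hochberg in the methods' t-test. With no filter 14 member probes were higher at an unadjusted limma p below 0.05, against 3.72% of all probes. Over the whole array 0 of 50526 probes were called with no filter and 0 of 20328 with the replicate block, in either direction. The member calls were also lost without any 1 array, in fits that leave 1 array in a group, with the detection rule kept or applied again. When the rule was applied again, some of these fits still called other probes of the array. A group of 1 array has no spread of its own, so these fits cannot decide whether the member calls hold. Member probes called lower, 0 as reported, came to 7 under spike-in scaling, 1 under normexp and 2 with the intensity trend. Over all tested probes the shares called lower in these settings were 44.9%, 3.73% and 8.54%.

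The changes of MALAT1 (0.63), NEAT1 (0.53) and KCNQ1OT1 (1.27) kept their direction in every alternative in which they were tested (KCNQ1OT1 was not tested under the filter on all 4 arrays, where the 10 calls hold MALAT1 8578 in its place) and lost the threshold with no filter (0.63, 0.53 and 1.27; limma adjusted p 0.411, 0.436 and 0.41), with the replicate block (adjusted p 0.125, 0.127 and 0.127), after Benjamini-Hochberg in the t-test, and without 1 array (0.60 to 0.66, 0.49 to 0.56 and 1.14 to 1.41; adjusted p 0.143 to 0.196). No pairing of the arrays by replicate number was seen, as the replicate differences of the 2 groups correlated at 0.03. The block took all 10 calls, but it left 0 of 20328 probes called over the whole array. Its loss of calls therefore cannot decide whether the arrays are paired. TUG1 passed as lower under spike-in scaling (-0.31). PVT1 reversed under spike-in scaling (-0.14), and it ranged from -0.16 to 0.26 when 1 array was left out, reversing without miR-335 mimic replicate 2. With the mean over all tested probes of a gene the changes were 0.92 for MALAT1 and 0.79 for NEAT1. The median over the member probes (0.23) became 0.038 under spike-in scaling, 0.11 under normexp and 0.10 with no filter, which adds dim probes, and ranged from 0.17 to 0.42 with 1 array left out. The 2 list genes called lower became 43 under spike-in scaling, 4 under normexp, 0 with no filter, 0 with the replicate block and 0 whichever array was left out. No difference between probes of a member was called in any of 14 alternatives. The causes were not tested, and the leave-one-out fits also hold fewer arrays. A block for slide or scan could not be fitted, because all arrays share both. The number of arrays, 2 per group, limits the precision.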

Other observations

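Other transcripts that the array files place at these loci, looked up by position, were examined beside the members. At TUG1, a probe named XLOC_002730 (accession D50525) on the same strand, 112 bases from the start of the brightest TUG1 probe, read 1.24 and 1.21 with the mimic and 1.13 and 1.29 in the control, so the groups overlapped (0.01 ± 0.07 SE, limma adjusted p 0.932). At PVT1, 3 probes with other names on the same strand were tested, XLOC_006924, Q9EPR2 and XLOC_006925, with changes of -0.35, -0.21 and -0.14, and none passed in limma (adjusted p 0.431 to 0.586). The opposite-strand probe ENST00000539634 at PVT1 read -0.14 on mimic replicate 1 and between -5.20 and -4.92 on the other 3 arrays, and it was not tested.

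The genes whose brightest probe had the pattern most like that of each RNA over the 4 arrays, among 14245 candidates and by the root-mean-square distance of centered log2 values, were AK054980 and AK021797 for MALAT1 (0.02 each), the chemokine CXCL12 and XLOC_002563 for NEAT1 (0.01 and 0.02), XLOC_l2_012083 and BC104430 for KCNQ1OT1 (0.10 each), HSD17B8 and HSPA4L for TUG1 (0.0025 and 0.0062) and FOXH1 and CDK18 for PVT1 (0.02 each). Within a distance of 0.1 there were 139 candidates for MALAT1, 248 for NEAT1, 1 for KCNQ1OT1, 6830 for TUG1 and 347 for PVT1. Over only 4 arrays such likeness is a description.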
